A study of Mus musculus with 15 samples.

Results

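Arid1a (ENSMUSG00000007880) and its paralogue Arid1b (ENSMUSG00000069729) were followed through an ATAC-seq study of pancreatic islets in which Arid1a was deleted in β cells. ATAC-seq reads open chromatin through the cuts that the Tn5 transposase makes in it. The 2 genes were taken by the gene name that the authors' deposited tables give to each peak. They held 13 of the 38285 distinct peak positions of the 4 tables. Positions of different tables that overlapped by at least 1 bp formed 4 regions, 1 at Arid1a and 3 at Arid1b, and filled 14 table entries.

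The proteins ARID1A and ARID1B are alternative DNA-binding subunits of the canonical BAF form of the SWI/SNF complex, which uses ATP to move or evict nucleosomes. A BAF complex holds one or the other, and in human cancer cell lines that have lost ARID1A the remaining complexes are known to depend on ARID1B. Whether the Arid1b locus altered in islets without Arid1a is therefore the question asked of the data here.

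All 15 mice were males aged 3 months, homozygous for a floxed Arid1a allele (Arid1aFl/Fl) and carriers of MIP-rtTA, a doxycycline-dependent activator under an insulin promoter. The βKO mice carried TRE-Cre as well. Every mouse drank doxycycline at 1 g/L for 2 weeks, per the labels' protocols. The groups were 3 βKO and 4 control mice before partial pancreatectomy (PPx, an operation that takes out a portion of the pancreas) and 4 βKO and 4 control mice 6 days after it. Whole islets were used, which hold α, δ and other cells besides β cells, so fewer cells with an open site and a less open site in each cell cannot be told apart. The labels do not name the exon between the loxP sites, and accessibility is no measure of excision.

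Each deposited table compares 2 groups and gives a group level per peak, the log2 concentration of DiffBind, which is the log2 of the mean normalised reads in the peak. It also gives a log2 change, a p-value and an FDR, and counts the libraries where the peak was called. All peaks span 601 bp, so levels can be compared between peaks. Single libraries were not analysed here, so the spread between mice enters only through the authors' p-values and no SD can be given. Standard errors (SE) and 95% intervals below were derived from the deposited change and p-value with a normal approximation. The tables listed between 7826 and 13111 peaks. The median log2 change of all peaks was 0.00 between βKO and control islets before PPx and 0.61 after PPx. For islets after against before PPx it was 0.83 in βKO mice and 0.16 in control mice. Of 9 β cell marker genes, 3 to 5 had a listed peak in each comparison, with Ins1, Nkx6-1 and Slc30a8 listed in all. Ins2, Pdx1, Slc2a2 and Iapp were listed in none. The summed level of the β cell markers is the log2 of the summed normalised reads of their listed peaks. Before PPx it was 5.87 in βKO and 5.90 in control islets, over 3 peaks. After PPx it was 7.54 in βKO and 6.78 in control islets, over 10 peaks with 2 called. Here and below, sums over different numbers of peaks cannot be set against each other. In βKO islets it was 7.47 after and 6.45 before PPx, over 9 peaks with 1 called. In control islets it was 5.82 after and 5.68 before PPx, over 3 peaks with 0 called. Of the α cell markers 2 of 5 were listed before PPx and 3 of 5 after. They summed to 4.49 in βKO and 4.91 in control islets before PPx, over 2 peaks. After PPx the sums were 5.87 in βKO and 5.54 in control islets, over 4 peaks, with 0 called at either time. The δ cell marker Sst read 5.07 in βKO and 4.38 in control islets before PPx, and 5.32 in βKO and 4.20 in control islets after PPx, where it was called, in the authors' deposited table. Of 21 markers of acinar, duct, endothelial, stromal and leukocyte cells, 0 were listed between the genotypes before PPx and 6 after PPx, with summed levels of 6.62 in βKO and 6.38 in control islets and 0 called. In βKO islets 5 were listed across the times, at summed levels of 5.75 after and 4.87 before PPx, and in control islets 3, at 5.18 after and 5.13 before PPx. By the authors' FDR 1 of the 5 was called and 0 of the 3. The 6 listed between the genotypes after PPx were Bhlha15, Cftr, Cdh5, Col3a1, Csf1r and Ptprc. The 1 called in βKO islets was a leukocyte marker, either Csf1r or Ptprc. These 2 summed to 4.79 after and 3.78 before PPx in βKO islets. The rest, such as Adgre1, Cpa1, Krt19 and Pecam1, were listed in none, and an unlisted marker was not measured here. The part of cell composition in the results below was not tested.

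The 4 regions lie away from the starts of both genes. On mm10 the Arid1a region covers chromosome 4, 133692981 to 133693581, and the authors annotate it to exon 9 of 20. Arid1a is read on the minus strand, and the centre of the region lies 63.5 kb downstream of the outer RefSeq start and 60.7 kb downstream of an inner one. The first Arid1b region covers chromosome 17, 5189704 to 5190304, in intron 4 of 18, 194.9 kb downstream of the start of Arid1b. The second covers 5295431 to 5296031, in intron 8 of 18, 300.7 kb downstream of that start. The third covers 4908019 to 4908619, is annotated as distal intergenic, and lies 86.8 kb upstream of the start of Arid1b. Between comparisons the position shifts by 1 bp at Arid1a exon 9. At Arid1b it shifts by up to 18 bp in intron 4, 44 bp at the distal region and 99 bp in intron 8.

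**Figure D1:**
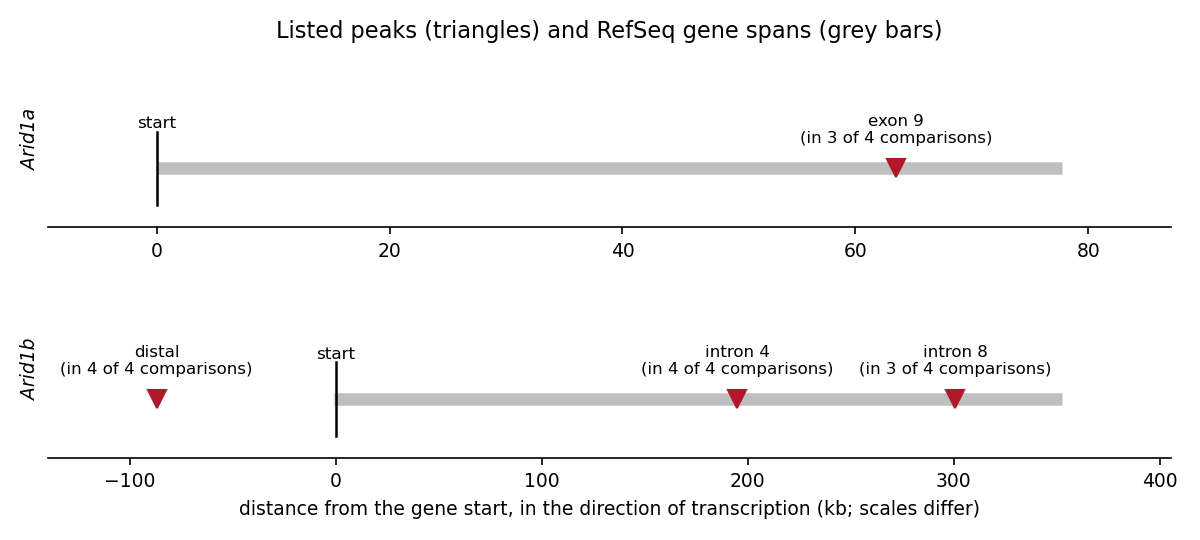
Places of the listed peaks (triangles) on the RefSeq spans of Arid1a and Arid1b (grey bars), as distance in kb from the gene start along the direction of transcription, with the number of comparisons that list each. The exon 9 peak lies 63.5 kb into Arid1a and no triangle lies at a gene start.

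No peak was listed within 3 kb of the start of either gene in any table. A promoter-class peak was listed for 13 of the 28 other SWI/SNF genes examined, and for 31.1% of 21900 RefSeq protein-coding genes. A peak entered a table only where at least 2 libraries had it called, so an unlisted promoter was not measured here rather than closed. The third Arid1b region has a nearer gene in RefSeq than Arid1b. The start of Gm34507, a long noncoding RNA, falls inside it at position 4908322, and the 300 bp promoter window of Gm34507 lies wholly within the listed peak in all 4 tables. That window is the stretch of member peak for which sequence was at hand, and it is shown with the promoter windows of Arid1a and Arid1b, from which the distances above are counted. Each runs 5′ to 3′ on its gene's strand from 250 bases before to 50 after the start (RefSeq, GRCm38.p6). Capitals mark the GC box GGGCGG or its reverse complement CCGCCC.
Gm34507, chr17:4908072-4908371, plus strand: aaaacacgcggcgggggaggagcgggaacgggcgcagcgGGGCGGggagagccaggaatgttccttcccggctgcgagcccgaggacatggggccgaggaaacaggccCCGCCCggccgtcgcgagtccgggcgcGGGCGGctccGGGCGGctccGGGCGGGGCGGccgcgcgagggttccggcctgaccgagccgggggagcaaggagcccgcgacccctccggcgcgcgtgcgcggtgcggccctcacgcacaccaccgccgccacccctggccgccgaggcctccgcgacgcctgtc
Arid1a outer start, chr4:133756720-133757019, minus strand: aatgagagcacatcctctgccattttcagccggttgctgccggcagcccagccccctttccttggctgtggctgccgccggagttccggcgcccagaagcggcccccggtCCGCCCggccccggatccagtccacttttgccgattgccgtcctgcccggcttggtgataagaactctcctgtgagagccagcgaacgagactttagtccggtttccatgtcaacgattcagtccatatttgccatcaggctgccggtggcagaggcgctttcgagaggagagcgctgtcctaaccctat
Arid1a inner start, chr4:133753936-133754235, minus strand: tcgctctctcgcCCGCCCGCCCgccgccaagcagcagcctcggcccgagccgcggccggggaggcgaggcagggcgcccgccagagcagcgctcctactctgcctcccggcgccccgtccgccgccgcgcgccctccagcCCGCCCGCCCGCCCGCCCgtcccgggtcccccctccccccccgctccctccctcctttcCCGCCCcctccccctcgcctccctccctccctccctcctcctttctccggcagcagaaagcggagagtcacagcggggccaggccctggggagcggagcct
Arid1b, chr17:4994824-4995123, plus strand: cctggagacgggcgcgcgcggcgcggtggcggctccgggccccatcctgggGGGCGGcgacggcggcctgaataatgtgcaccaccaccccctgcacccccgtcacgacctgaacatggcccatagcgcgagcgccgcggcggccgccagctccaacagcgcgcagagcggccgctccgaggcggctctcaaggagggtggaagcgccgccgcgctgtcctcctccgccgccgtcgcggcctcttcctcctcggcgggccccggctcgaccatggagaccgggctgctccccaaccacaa
The Gm34507 window holds 6 GC boxes, overlapping matches counted, the inner Arid1a window 7, and the outer Arid1a and the Arid1b windows 1 each. At least 1 GC box is present in 35.7% of 32851 RefSeq promoter windows of the same length. The Gm34507 window has 49 CpG dinucleotides, the Arid1b window 42, the inner Arid1a window 36 and the outer Arid1a window 22, against a median of 7 over all windows. The Arid1b window, where no peak was listed, thus had more CpG than 97.0% of windows. That window and the start at 4995074 used for it lie inside the RefSeq span of Arid1b, which begins at 4994297. The values of the Arid1b window therefore do not describe the sequence before the outer edge of the gene. The matches say nothing of which factors bind.

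At Arid1a, the exon 9 peak had a high level before PPx in islets of βKO mice and lay close to the lowest measured levels in control islets. Arid1a is the gene deleted in the βKO mice, and the part of the deletion itself in this signal was not tested. Before PPx its level was 5.49 in βKO and 1.21 in control islets in the authors' deposited table, which corresponds to 44.9 and 2.31 normalised reads. The peak was called in 3 of 3 βKO and 0 of 4 control libraries, per the authors' deposited table. Listing needed calls in at least 2 libraries, so exon 9 was listed only through the group where it is high. Its change and rank are to be read with that selection. The log2 change was 4.28 (SE 0.83, 95% interval 2.66 to 5.90), with FDR = 0.00187 in the authors' deposited table. The βKO level exceeded that of 92.3% of the 7826 listed peaks, while the control level exceeded that of 2.25% of them. It was the one peak called in this comparison, where 0.0128% of all peaks passed an FDR of 0.05. The next largest change, at a distal peak of Psg26, was 2.35.

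After PPx the exon 9 level was 4.04 in βKO and 0.40 in control islets in the authors' deposited table, or 16.4 and 1.32 normalised reads. It was called in 3 of 4 βKO and 0 of 4 control libraries, per the authors' deposited table, and so was again listed through βKO libraries alone. The log2 change of 3.64 (SE 0.69, 95% interval 2.29 to 4.99) had FDR = 0.00201 in the authors' deposited table, and was the largest of 13111 peaks. In this comparison 9.97% of all peaks were called. Relative to the median of all peaks the exon 9 change was 3.03, with an adjusted p of 0.0106 in the approximate normal test with Benjamini-Hochberg adjustment over all peaks, which 0.389% of peaks passed. The lowest control level of any peak in that table was -0.26, so the control value lay near it and the size of the fold rests on very few control reads.

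**Figure D2:**
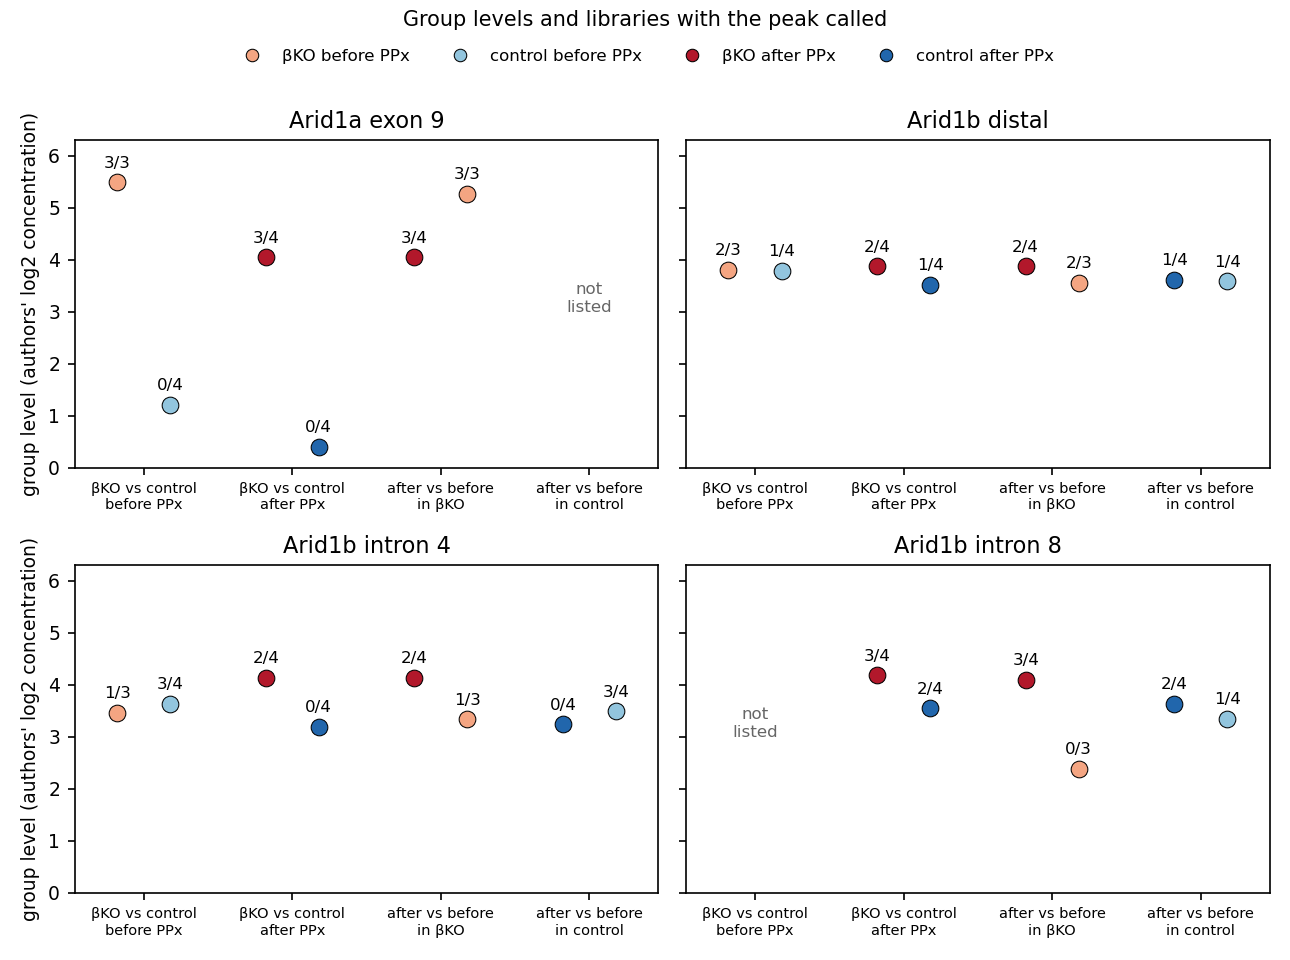
Group level of each region (the authors' log2 concentration) in the comparisons that list it, with how many libraries had the peak called over the number in the group. At Arid1a exon 9 the βKO groups lie between 4.04 and 5.49 and the control groups at 1.21 and 0.40, while all Arid1b levels lie between 2.38 and 4.18.

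Other peaks were also called in βKO libraries alone, but none of them had a change of this size. Before PPx, 59 other peaks were called in all 3 βKO libraries and no control library, 0.767% of all peaks with exon 9 included. Their median log2 change was 0.59 and the largest was 1.77, in exon 5 of Fez2. After PPx, 1040 other peaks were called in at least 3 βKO and no control libraries, with exon 9 7.94% of all peaks. Their median change was 0.87 and the largest was 2.58, at Ak5. This description covers calls in libraries and carries no test.

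The nearest listed neighbours of exon 9 did not pass between the genotypes. The nearest listed peak on the side of lower coordinates, the promoter of Nudc, which encodes a nuclear distribution protein, lay 147.2 kb away before PPx. It read 3.43 in βKO and 3.62 in control islets before PPx, with FDR = 1, in the authors' deposited table. After PPx it read 3.21 in βKO and 3.07 in control islets (unadjusted p-value 0.759, FDR = 1) in the authors' deposited table. On the other side the nearest listed peak was 493.9 kb away before PPx, at the promoter of Cep85, and 217.8 kb away after PPx, near Rps6ka1. Their log2 changes were -0.28 and 0.06. No other peak between these neighbours was measured, so the extent of the signal beyond exon 9 is not known.

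In βKO islets the exon 9 level was lower after PPx than before, while nearly all other peaks had higher values after PPx. It was 4.04 after and 5.26 before PPx in the authors' deposited table, and 3 of 4 libraries after and 3 of 3 before had the peak called. The log2 change of -1.22 (SE 0.47, 95% interval -2.14 to -0.30) had a p-value of 0.00918 (FDR = 0.0584) in the authors' deposited table and missed the threshold. Of the 12767 peaks, 97.1% had risen in value after PPx and 6 had a lower change than exon 9. Relative to the median gain of 0.83 the change was -2.05. This had the smallest p of the table in the approximate normal test (1.2e-05), but an adjusted p of 0.153, and 0% of peaks passed that test, with 216 at an unadjusted p under 0.05. The βKO level before PPx was 5.49 in the comparison of genotypes, and a median of 0.23 separated that group's levels in its 2 tables over 7591 matched peaks, the same as the step between 5.49 and 5.26.

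The 4 groups thus kept the order βKO before PPx, βKO after PPx, control before PPx and control after PPx at exon 9, over tables that were scaled separately. The genotypes were separated by the authors' FDR at both times, the neighbours βKO after and βKO before were not, and control after was not set against control before because the region was not listed in that comparison. The genotype difference after PPx less that before PPx was -0.64 on the log2 scale (3.64 against 4.28, SE 1.08, 95% interval -2.75 to 1.47). With an adjusted p of 0.71 over 7504 matched peaks in the approximate test, a change of the genotype difference with PPx was not detected. Relative to the medians of both comparisons it was -1.25 (95% interval -3.36 to 0.86), with an adjusted p of 1.00, and the interval leaves room for a large one.

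At the Arid1b regions listed between the genotypes before PPx, the levels of βKO and control islets were close. In intron 4 the level was 3.46 in βKO and 3.64 in control islets, called in 1 of 3 βKO and 3 of 4 control libraries, per the authors' deposited table. The log2 change was -0.18 (95% interval -1.17 to 0.81), with FDR = 1 in the authors' deposited table. At the distal region over Gm34507 the level was 3.80 in βKO and 3.78 in control islets, called in 2 of 3 βKO and 1 of 4 control libraries, per the authors' deposited table. The log2 change was 0.02 (95% interval -0.88 to 0.92), with FDR = 1 in the authors' deposited table. Neither passed the threshold, and both intervals include sizeable changes in either direction. The intron 8 region was not listed in this comparison.

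After PPx all 3 Arid1b regions had higher values in βKO than in control islets, and none was called. In intron 4 the level was 4.14 in βKO and 3.19 in control islets, called in 2 of 4 βKO and 0 of 4 control libraries, per the authors' deposited table. Intron 4 was thus listed there through βKO libraries alone. The change of 0.95 (95% interval 0.11 to 1.79) had a p-value of 0.0259 (FDR = 0.0801) in the authors' deposited table. In intron 8 the level was 4.18 in βKO and 3.55 in control islets, called in 3 of 4 βKO and 2 of 4 control libraries, per the authors' deposited table. That change was 0.63 (95% interval -0.14 to 1.40), with FDR = 0.185 in the authors' deposited table. The distal region read 3.87 in βKO and 3.52 in control islets, called in 2 of 4 βKO and 1 of 4 control libraries, per the authors' deposited table. Its change was 0.35 (95% interval -0.44 to 1.14), with FDR = 0.46 in the authors' deposited table.

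Set against the general gain of the comparison, the Arid1b regions were ordinary peaks. The median change of all peaks was 0.61, and the changes relative to it were 0.34 in intron 4, 0.02 in intron 8 and -0.26 at the distal region. Each had an adjusted p of 1.00 in the approximate normal test. A smaller change than that of intron 4 was seen at 84.4% of peaks, than that of intron 8 at 51.5%, and than that of the distal region at 26.8%.

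**Figure D3:**
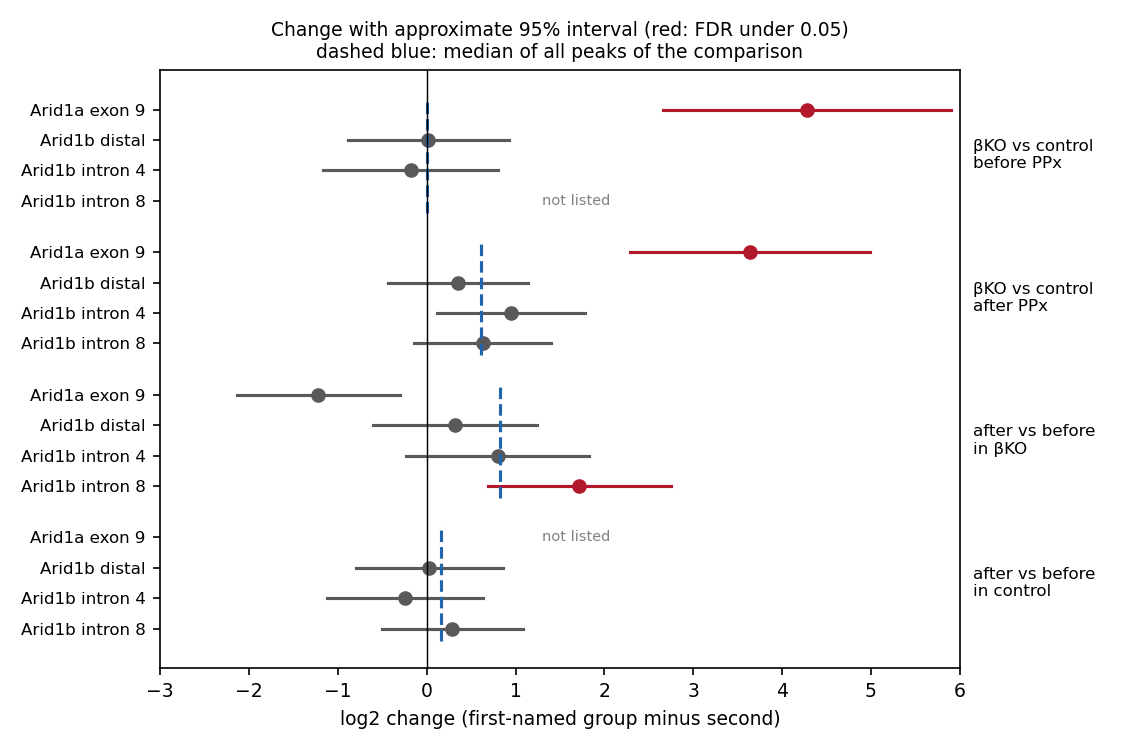
Log2 change of each region in each comparison (first-named group minus second), with approximate 95% intervals, the median of all peaks as a dashed line, and red for an FDR under 0.05. The Arid1a exon 9 changes of 4.28 and 3.64 lie apart from the dashed lines, whereas the Arid1b intervals include them.

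In βKO islets the intron 8 region of Arid1b rose after PPx. Its level was 4.10 after and 2.38 before PPx in the authors' deposited table. It was called in 3 of 4 libraries after and 0 of 3 before, per the authors' deposited table. Listing needed calls in at least 2 libraries, so the region entered this comparison only through the group where it is high. Its change is to be read with that selection. Calls in at least 3 libraries after and 0 before were seen at 8.87% of all peaks. The log2 change of 1.72 (SE 0.52, 95% interval 0.69 to 2.75) had FDR = 0.0353 in the authors' deposited table, in a comparison that called 7.44% of all peaks. It was the one region of Arid1a and Arid1b called there. Relative to the median gain of 0.83 it stood 0.89 higher, with an adjusted p of 1.00 in the approximate normal test, and 97.8% of all peaks had a smaller change. The next listed peak towards higher coordinates, the promoter of the palmitoyltransferase gene Zdhhc14, lay 196 kb further and rose as well, to 4.41 after against 2.61 before PPx, with FDR = 0.0282, in the authors' deposited table. Before PPx that promoter read 3.01 in βKO and 3.99 in control islets (unadjusted p-value 0.0516) in the authors' deposited table. After PPx it read 4.42 in βKO and 3.87 in control islets (FDR = 0.21) in the authors' deposited table. Neither genotype difference passed the FDR threshold. In control islets that promoter read 3.90 after and 3.79 before PPx (FDR = 0.999) in the authors' deposited table.

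The other Arid1b regions did not pass in βKO islets. Intron 4 read 4.14 after and 3.34 before PPx, a log2 change of 0.80 with FDR = 0.192, and was called in 2 of 4 libraries after and 1 of 3 before, per the authors' deposited table. The distal region read 3.87 after and 3.55 before PPx, a log2 change of 0.32 with FDR = 0.539, and was called in 2 of 4 libraries after and 2 of 3 before, per the authors' deposited table.

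In control islets no region of Arid1b passed, nor did any of the 8070 peaks by the authors' FDR (0% called; 196 higher and 8 lower at an unadjusted p under 0.05). Intron 8 read 3.64 after and 3.35 before PPx, a log2 change of 0.29 with FDR = 0.999, and was called in 2 of 4 libraries after and 1 of 4 before, per the authors' deposited table. Intron 4 read 3.24 after and 3.49 before PPx, a log2 change of -0.24 with FDR = 0.999, and was called in 0 of 4 libraries after and 3 of 4 before, per the authors' deposited table. The distal region read 3.61 after and 3.58 before PPx, a log2 change of 0.03 with FDR = 0.999, and was called in 1 of 4 libraries at each time, per the authors' deposited table.

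Whether the PPx response of Arid1b differed with genotype was tested directly. For intron 8, the change in βKO islets exceeded that in control islets by 1.43 (1.72 against 0.29, SE 0.66, 95% interval 0.13 to 2.73). The p of the approximate normal test was 0.0311, and 0.351 after adjustment over 7535 matched peaks, so the difference did not pass. Relative to the medians of both comparisons it was 0.76, with an adjusted p of 1.00. Intron 4 had a genotype difference after PPx larger by 1.13 than before PPx (0.95 against -0.18, SE 0.66, 95% interval -0.16 to 2.42), with an adjusted p of 0.372. Relative to the medians it was 0.52, with an adjusted p of 1.00. For the distal region the difference was 0.33 (0.35 against 0.02, SE 0.61, 95% interval -0.87 to 1.53), with an adjusted p of 0.736, and relative to the medians it was -0.28, with an adjusted p of 1.00. Of all matched peaks 0% passed, while 1079 of 7504 in the comparisons of genotypes and 1022 of 7535 in the comparisons of times had an unadjusted p under 0.05. A response of Arid1b particular to islets with deleted Arid1a was therefore not shown, and the intervals do not show that the responses were alike.

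**Figure D4:**
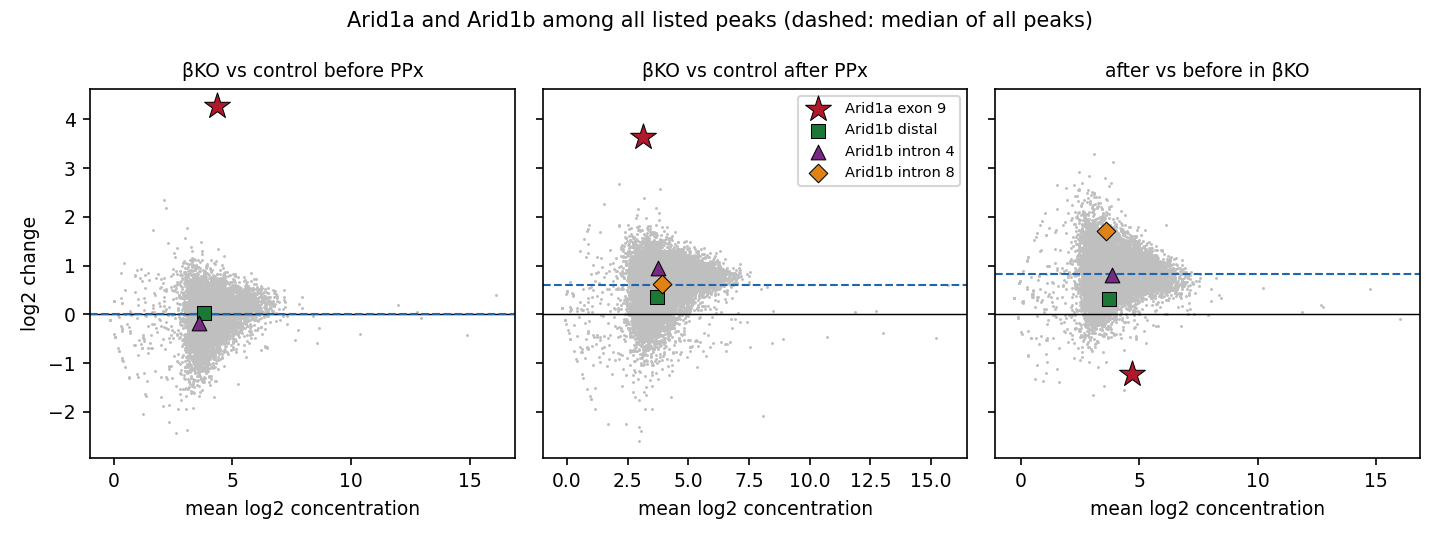
Log2 change against mean log2 concentration for all listed peaks (grey) of 3 comparisons, with the regions of Arid1a and Arid1b marked and the median of all peaks dashed. The Arid1a exon 9 peak lies above all others in both comparisons of genotypes and near the lower edge, at -1.22, in βKO islets after against before PPx.

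Among the 28 other SWI/SNF genes, none had a called peak in any comparison by the authors' FDR. Of all peaks 0.0128% were called between the genotypes before PPx and 9.97% after PPx, and 7.44% in βKO and 0% in control islets after against before PPx, so with 7 to 15 peaks a count of 0 says little. An unadjusted p under 0.05 was deposited for 3 of 13 peaks between the genotypes after PPx and 2 of 15 peaks in βKO islets after against before PPx, and for 0 of 7 in either other comparison. Over all peaks the shares were 33.6% between the genotypes after PPx and 39.4% in βKO islets after against before PPx. They were 3.14% between the genotypes before PPx and 2.53% in control islets after against before PPx. Before PPx, 7 of the 28 genes had a listed peak, with a median change of -0.23 between βKO and control islets, against 0.00 for all peaks. The smallest p belonged to Smarca4, which encodes the ATPase BRG1, at a log2 change of 0.42 and FDR = 1 in the authors' deposited table. After PPx, 12 genes had 13 listed peaks, of which 12 had higher values in βKO islets, as did 90.3% of all peaks. Their median change was 0.69, against 0.61 for all peaks. Smarcd2, which encodes a BAF60 subunit, had the smallest p and read 4.04 in βKO and 3.03 in control islets, with FDR = 0.0624, in the authors' deposited table. Its peak was called in 4 of 4 βKO and 0 of 4 control libraries, and so was listed through βKO libraries alone. For islets after against before PPx the median over these genes was 0.68 in βKO islets and 0.15 in control islets, against 0.83 and 0.16 for all peaks.

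The patterns of the members were set against those of all peaks matched across the tables, by the Euclidean distance of the changes relative to each table's median. Arid1a exon 9 had no close match over the 3 tables that list it. The nearest of 7443 peaks was a distal peak of Gm8159, at a distance of 3.51, where the median distance was 5.60. Distal peaks of Gm5274 and Gm4835 followed at 3.94 and 4.07. Over 4 tables, Arid1b intron 4 was nearest to a distal peak of Cct8l1 and to the promoters of Ttc27 and Gm29394, at distances of 0.056 to 0.081. The distal Arid1b region was nearest to the promoters of Ticrr, Bsdc1 and Sema3d, at 0.048 to 0.07. The median distances to all other of the 6807 matched peaks were 0.76 and 0.81.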

How the data were processed

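ATAC-seq libraries of islets from 15 mice, each from 40000 cells and read as single ends of 75 bp, were processed by the authors. DiffBind, ChIPseeker, MACS, BWA and cutadapt, with mm10 (GRCm38), appear in the submitters' processing notes. Versions, settings and any shift for the Tn5 cut were not given in the sources used here. Per the file headers, the authors' 4 tables hold log2 concentrations per group, a log2 fold, a p-value with an FDR, and how many libraries had each peak called. Scaling was the authors' own and differs between tables. Depth per library is unknown.

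Repeated rows were reduced to 1 per position, and signs were turned so that positive means higher in βKO or after PPx. An FDR of the authors under 0.05 was a call. Between the genotypes after PPx, 4534 of 13111 peaks carried an FDR of 1, some at small p-values. There it can stand for a peak left without adjustment. SEs came from the deposited change and p-value by the normal quantile. Where p was 0.5 or more, or the change under 0.1, the median SE of 1 of 20 concentration bins was used. Peaks with a p of 0.5 or more beside a change over 2 such SEs were left out, 0 to 2 per table. Changes relative to the table median and genotype by PPx differences were tested with an approximate normal test, two-sided, with Benjamini-Hochberg adjustment over all peaks. The genotype by PPx difference came from the comparisons of genotypes, and for Arid1b intron 8 from the comparisons of times. Peaks were matched at 1 bp of overlap. The steps were tested on simulated data. Python 3.11.15, pandas 2.3.3, numpy 2.4.6 and scipy 1.17.1 were used. The text names every Arid1a and Arid1b peak, SWI/SNF genes that were called or had the smallest p, and the 3 nearest patterns. Nudc, Zdhhc14, Cep85 and Rps6ka1 were named as neighbours, and Psg26, Fez2, Ak5 and Gm34507 after their values were seen. Members and lists were chosen with earlier results of these data known.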

Additional observations from a re-analysis of the deposited data

How the results depend on the processing

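Calls at Arid1a exon 9 between the genotypes held under adjustment over all listed peaks, an FDR of 0.01 and values relative to the median. At an FDR of 0.01, 0 regions of these genes were called in βKO islets after against before PPx, so the intron 8 call of Arid1b was lost. It was also lost relative to the table median, where the change was 0.89. Some uncalled Arid1b changes turned sign relative to the median, and the others kept theirs. The distal region then read -0.26 between the genotypes after PPx, -0.51 after against before PPx in βKO islets and -0.13 in control islets, and intron 4 read -0.03 in βKO islets. The genotype by PPx difference of the distal region turned to -0.28, and to -0.38 from the comparisons of times, an alternative chosen after seeing the data. Over all peaks, adjustment over every listed peak left 551 calls between the genotypes after PPx and 573 in βKO islets after against before PPx. The stricter FDR left 3 and 5. Set against the median, 2 rose and 49 fell between the genotypes after PPx, against 1296 and 11 as deposited. Merging overlapping positions left 1 Arid1a and 3 Arid1b regions, and 7 of the 11 Arid1b positions lie inside its RefSeq span.

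Leaving out a library was not done, as the tables hold group values. No paired analysis was possible because the sample numbers in the labels are not shared between groups. With 3 or 4 mice a group and 1.32 to 44.9 normalised reads at these peaks, the derived 95% intervals spanned 1.55 to 3.24 log2 units.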

Other observations

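The promoter of Smarcd2 did not pass in any comparison, and 97.1% of all peaks had higher values in βKO islets after PPx than before. Its level in βKO islets was 4.04 after and 2.72 before PPx, a log2 change of 1.32 (FDR = 0.0677) in the authors' deposited table. The peak was called in 4 of 4 βKO libraries after PPx and in 0 of 3 before, and in 0 of 4 control libraries after PPx, per the authors' deposited table. It was thus listed in both comparisons only through the group where it is high, and its changes are to be read with that selection. Calls in at least 3 libraries of that group and 0 of the other were seen at 8.87% of peaks against βKO islets before PPx. Against control islets after PPx the share was 7.94%. The promoter of Smarcc1, which encodes a core scaffold subunit, read 3.65 in βKO and 2.62 in control islets after PPx (unadjusted p-value 0.027, FDR = 1) in the authors' deposited table. Arid1b intron 4, with an unadjusted p-value of 0.0259 in that comparison, had FDR = 0.0801 in the authors' deposited table. The FDR of 1 for Smarcc1 is therefore not read as a tested negative. Smarcc1 was chosen after its values were seen. Its peak was called in 2 of 4 βKO and 0 of 4 control libraries after PPx, and so was listed there through βKO libraries alone.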
